A study of Mus musculus with 12 samples.

Results

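Aminoacyl-tRNA synthetases are the enzymes that join each amino acid to its transfer RNA. The 34 genes described here encode 19 cytosolic and 15 mitochondrial synthetases, and they were chosen by name from the 41079 genes of the deposited count table. All 34 were found in the table, and all 34 passed the filter on low counts, which left 20771 genes for testing. RNA was measured in 12 whole mouse embryos aged 10.0-11.0 days post-fertilization, from timed matings of breeders heterozygous for Mfsd12. By the genotype labels, 4 embryos were Mfsd12 knockout, 4 were Mfsd12 heterozygous and 4 were wild-type, and no treatment is named. Every group comes from heterozygous parents, so every embryo, wild-type included, had a heterozygous mother. Mfsd12 encodes a lysosomal membrane protein required for the import of cysteine into lysosomes and melanosomes. The allele, the strain, and the sex and stage of single embryos were not given in the sources used here. Each embryo is 1 library, and embryos are numbered 1 to 4 within a genotype in deposition order.

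Most eukaryotic synthetases act in one compartment. The cytosolic enzymes charge the tRNAs used for proteins encoded in the nucleus, and a separate set of nuclear genes, named with a 2, makes the enzymes imported into mitochondria. Gars1 and Kars1 are counted as cytosolic here, although each encodes both the cytosolic and the mitochondrial enzyme. When an amino acid runs short, uncharged tRNAs activate the kinase GCN2, which phosphorylates the initiation factor eIF2 and increases translation of the transcription factor ATF4. Many cytosolic synthetase genes, with genes of amino acid synthesis and transport, are known targets of ATF4, which binds the C/EBP-ATF response element together with C/EBP proteins.

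Because of that known link, the promoter windows of the members were searched for the core of the response element. The windows are those of RefSeq on build GRCm38.p6, from 250 bases before to 50 bases after each gene's start, and 12 of 19 cytosolic and 13 of 15 mitochondrial genes had one. The letters TGATGNAA (N is any base) were searched on both strands, and they occurred in 5 of the 12 cytosolic genes and in 0 of the 13 mitochondrial genes. Of 19089 windows of tested genes, 2.55% held them. For each of the 5 genes, 1 match is printed with 11 bases on each side, 5′ to 3′ along the gene's own strand, with the match in capitals. A match on the opposite strand appears as the reverse complement of these letters. Positions count the annotated start as base 1, with negative positions upstream. These coordinates belong to another build than the counts, which use GRCm39.
Aars1, position 10, chr8:111033840-111033869: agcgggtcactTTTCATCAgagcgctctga
Gars1, position -30, chr6:55037960-55037989: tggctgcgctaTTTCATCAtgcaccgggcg
Tars1, position -15, chr15:11399655-11399684: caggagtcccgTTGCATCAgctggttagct
Yars1, position 4, chr4:129189895-129189924: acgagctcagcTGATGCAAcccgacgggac
Iars1, position 8, chr13:49682126-49682155: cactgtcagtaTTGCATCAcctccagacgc
Asns, position -23, chr6:7693214-7693243: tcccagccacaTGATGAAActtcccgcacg
Chac1, position -193, chr2:119351038-119351067: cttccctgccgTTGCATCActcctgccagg

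Asns, which makes asparagine, and Chac1, which degrades glutathione, are shown for comparison as ATF4 targets that are not synthetases. Of 33 such targets with a window, 10 held the letters. Of the 5 printed matches in cytosolic members, those of Gars1 and Aars1 read TGATGAAA, and those of Tars1, Yars1 and Iars1 read TGATGCAA. Aars1 also held a match that is not printed, which reads TGATGCAA at position -112. A second motif, the NRF1 core GCGCATGC, was searched the same way, on both strands. It occurred in 0 of 12 cytosolic and in 3 of 13 mitochondrial genes (Rars2, Vars2 and Wars2), against 3.98% of the windows of tested genes. The cytosolic genes with no window in the table were Cars1, Hars1, Lars1, Nars1, Rars1, Vars1 and Wars1, and the mitochondrial ones were Hars2 and Pars2. A match describes these letters only.

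Each library held 53133084 to 67977990 counted reads, and single members had between 193 and 43285 reads in a library. Mfsd12 itself measured 3.22, 2.79, 3.57 and 2.31 CPM (a gene's reads scaled to a common library total) in knockout 1 to 4 and 12.7, 16.2, 9.48 and 9.38 in the wild-type embryos. The heterozygous embryos measured 8.84, 2.58, 6.03 and 5.91 CPM. The library labelled heterozygous 2 therefore lay inside the knockout range for the targeted gene. Some fitted counts or medians of the members are given with and without it, and others only with it. Means and SDs of heterozygous embryos include it. The knockout minus wild-type difference of Mfsd12 was -2.01 ± 0.33 on the log2 scale (standard error, SE), with adjusted p = 0.385 by the quasi-likelihood test of edgeR, whose p-values are adjusted over all 20771 genes throughout.

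Markers of several cell types also differed between the embryos. The erythroid marker list summed to 5182-18880 CPM in knockout, 12940-51810 in heterozygous and 17910-95930 in wild-type embryos, with 14 of 14 estimates lower in knockout than in wild-type. Neuronal markers summed to 197-858, 689-1373 and 794-1265 CPM in the same order, with 11 of 12 lower in knockout, and macrophage markers to 12.2-117.9, 65.1-168 and 73.9-220.7 CPM, with 10 of 10 lower. Yolk sac endoderm markers summed to 1477 CPM in knockout 3, with the other 11 embryos at 45.4-187.3 CPM, with 11 of 11 higher in knockout. Of 10 trophoblast and decidua markers, 8 did not pass the count filter. A stage index was formed from genes whose RNA is known to increase as embryos develop and genes whose RNA is known to decrease, as the difference of their mean z scores. It was -0.86, -1.44, 0.40 and -3.28 in knockout 1 to 4, 1.14, -0.36, 0.96 and 0.78 in heterozygous 1 to 4, and 0.89, 1.82, 0.36 and -0.41 in wild-type 1 to 4. The index shares Tubb3, Stmn2 and Crmp1, among others, with the neuronal list, so it is not independent of that list. Afp, one of its increasing genes, measured 3319 CPM in knockout 3 and at most 513.1 CPM in the other embryos. In whole embryos, fewer cells of a type and less RNA per cell cannot be told apart. The part of these differences in the values of the synthetases was not tested.

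The members' levels separated by compartment. Per kilobase of exon, the 19 cytosolic genes had a median of 56.8 CPM, from 19.65 for Farsb to 134.5 for Kars1, and the 15 mitochondrial genes had a median of 5.76 CPM, from 1.10 for Nars2 to 14.4 for Rars2. All 19 cytosolic members lay above every mitochondrial member on this scale, and the ratio of the medians was 9.86. The median over all genes tested was 2.91 CPM per kilobase. The length used is the summed exon length of the annotation, 15898 bases for Nars2 and 3089 for Rars2. Ranks on this scale therefore depend on the annotated exons. Among cytosolic genes, Kars1 (lysine), Nars1 (asparagine, 119.5) and Gars1 (glycine, 101) were the 3 highest, and Farsb, the beta subunit of the phenylalanine enzyme, Cars1 (cysteine, 21.6) and Vars1 (valine, 28.0) the 3 lowest. The cytosolic set also varied more between embryos. The SD of log2 CPM over the 12 embryos had a median of 0.41 for cytosolic members (0.17 for Hars1 to 0.68 for Lars1), 0.22 for mitochondrial members (0.14 for Rars2 to 0.54 for Mars2) and 0.40 for all genes.

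In knockout against wild-type embryos, 17 of 19 cytosolic synthetases had a higher estimate, with a median log2 fold change of 0.50 (range -0.14 for Hars1 to 0.95 for Cars1). Among the 15 mitochondrial synthetases, 12 were higher, with a median of 0.058 (-0.39 for Hars2 to 0.44 for Mars2). Over all genes tested, 51.3% had a higher estimate and the median was 0.011. By edgeR 0 of 34 members passed an adjusted p of 0.05, as did 0% of all genes. DESeq2 and limma voom (with sample weights) also passed 0 of the 34. At an unadjusted p under 0.05, 8 cytosolic members were higher, against 4.25% of all genes: Aars1, Cars1, Iars1, Lars1, Mars1, Nars1, Tars1 and Yars1. By DESeq2 the count was also 8, and by voom it was 12. Shares of all genes at an unadjusted p under 0.05 come from the edgeR fit of all 12 embryos throughout. Those of other tools and fits are not given here. No mitochondrial member reached that level in any of the 3 tools, and 4.08% of all genes were lower at an unadjusted p under 0.05. Knockout and wild-type embryos overlapped for all 34 members, while 1.60% of all genes were higher and 1.82% lower with no overlap. The 10 cytosolic members with the largest estimates each exceeded every mitochondrial estimate.

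**Figure D1:**
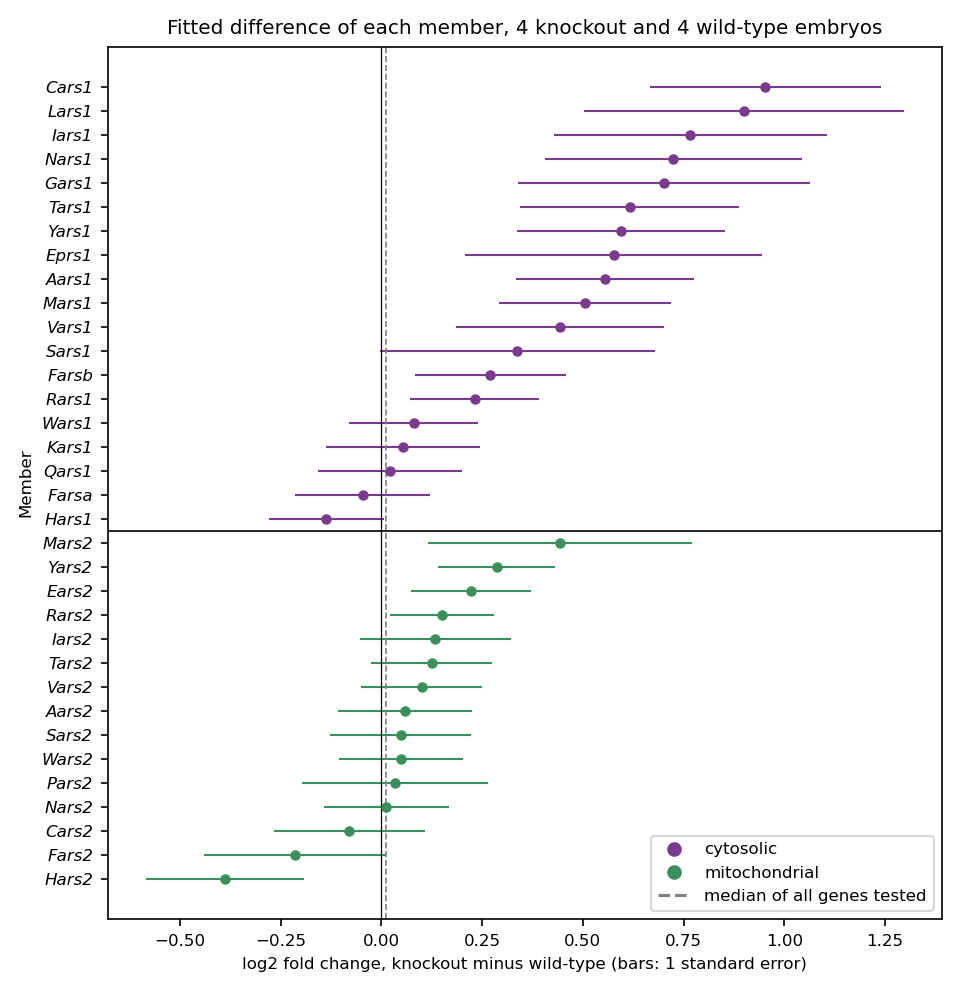
Fitted log2 fold change of each member, knockout minus wild-type, with bars of 1 SE from the edgeR fit. The 19 cytosolic estimates (purple) run from -0.14 to 0.95 and the 15 mitochondrial ones (green) from -0.39 to 0.44, and the dashed line marks the median of all genes at 0.011.

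The count of 8 rested on single embryos. It was 1 without knockout 1, without knockout 2 or without wild-type 2, 3 without wild-type 4, 5 without wild-type 1 or without wild-type 3, and 10 without knockout 3. Without the library labelled heterozygous 2, which enters the shared estimate of spread, it was 10. With knockout 1 and that library both left out, it was 5. Shares of all genes in these fits are not given. The median of the cytosolic estimates was 0.32 without knockout 1 and 0.67 without knockout 3.

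Cars1 lies at chr7:143110967-143153827 (GRCm39, minus strand) and encodes the enzyme that charges cysteine, the amino acid whose lysosomal import needs Mfsd12. It had the largest estimate of the 34 members. Cars1 measured 187, 154, 71.4 and 101 CPM in knockout 1 to 4, 56.5, 118, 74.8 and 68.8 CPM in heterozygous 1 to 4 and 68.7, 54.3, 63.8 and 78.7 CPM in wild-type 1 to 4. Knockout 1, 2 and 4 and the library labelled heterozygous 2 lay above every wild-type embryo, and knockout 3 lay inside the wild-type range. The means were 128 ± 51.9 CPM (SD, n = 4) in knockout and 66.3 ± 10.2 CPM (SD, n = 4) in wild-type. The difference was 0.95 ± 0.29 on the log2 scale (SE), a 1.94-fold ratio, with edgeR adjusted p = 0.537 and exact two-sided permutation p = 0.0571. With 4 embryos against 4, the smallest p that the exact test can give is 0.0286.

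The genes of the enzymes that charge alanine and asparagine had the same order of embryos within the knockout group. Aars1 (chr8:111759781-111784237, plus strand) measured 492, 366, 227 and 247 CPM in knockout 1 to 4, against 231, 215, 219 and 242 CPM in wild-type 1 to 4. Wild-type embryos were close together, knockout 1, 2 and 4 lay above them and knockout 3 lay inside their range. The heterozygous embryos measured 199.7, 305, 266 and 242 CPM. The difference was 0.56 ± 0.22 (SE), with edgeR adjusted p = 0.573. The 1267 exonic bases (19.97%) that Aars1 shares with Exosc6 on the same strand were counted for both genes in part, and Exosc6 had a mean of 4.42 CPM. Nars1, on chromosome 18, measured 558, 412, 245 and 319 CPM in knockout, 190.5, 569.5, 233 and 279.7 in heterozygous and 274, 205, 229.5 and 219.8 in wild-type embryos. Its highest 3 values were those of the library labelled heterozygous 2, knockout 1 and knockout 2, and its difference was 0.72 ± 0.32 (SE; edgeR adjusted p = 0.598, exact permutation p = 0.0571).

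The tyrosine, threonine, glycine and serine enzymes also work outside the multi-synthetase complex. Yars1 (chr4:129083595-129113033) measured 245, 215, 121 and 124 CPM in knockout 1 to 4, against 139.7, 114, 101 and 112 CPM in wild-type 1 to 4, a difference of 0.60 ± 0.26 (SE; edgeR adjusted p = 0.597). Of the knockout embryos, 1 and 2 lay above the wild-type range. The heterozygous embryos measured 110.0, 210.1, 123 and 124 CPM for Yars1. For Tars1 (chr15:11383749-11399744) the estimate was 0.62 ± 0.27, for Gars1 (chr6:55014986-55056489) 0.70 ± 0.36 and for Sars1 (chr3:108332180-108352575) 0.34 ± 0.34 (SE). All 3 had their highest CPM in the library labelled heterozygous 2, at 308, 499.6 and 448 CPM, against means of 147 ± 18.2, 175 ± 24.6 and 179 ± 55.0 CPM in wild-type embryos (SD, n = 4).

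In mammals a set of synthetases is held together with scaffold proteins in the multi-synthetase complex, and 7 of the cytosolic members belong to it. All 7 had a higher estimate in knockout than in wild-type, with a median of 0.50 (0.022 for Qars1 to 0.90 for Lars1), and the 12 other cytosolic members had a median of 0.50 as well, with 10 higher. Lars1, the leucine enzyme, measured 373, 261, 145 and 202 CPM in knockout, 112, 462, 161 and 152 CPM in heterozygous and 115, 107, 161 and 143 CPM in wild-type embryos. Its estimate was 0.90 ± 0.40 (SE; edgeR adjusted p = 0.598, exact permutation p = 0.0571), and its lowest knockout value, in knockout 3, lay inside the wild-type range. Iars1 (chr13:49835606-49887743), the isoleucine enzyme, had an estimate of 0.77 ± 0.34 (SE), with 465, 412, 212 and 292 CPM in knockout 1 to 4, against 181, 158, 234 and 239.7 CPM in wild-type 1 to 4.

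Eprs1 (chr1:185093614-185160557), which charges both glutamate and proline from 1 protein, measured 492, 385, 282 and 447 CPM in knockout, 216, 914, 322 and 322 in heterozygous and 216, 219, 338 and 304 in wild-type embryos. The library labelled heterozygous 2 stood far above the other 11 embryos for this gene. Its knockout minus wild-type estimate was 0.58 ± 0.37 (SE; edgeR adjusted p = 0.677). Mars1 (chr10:127132090-127147655), the methionine enzyme, measured 271, 226, 129.8 and 160.0 CPM in knockout, 114, 175, 151 and 146 in heterozygous and 164, 125, 129.5 and 137 in wild-type embryos, and here knockout 1 and 2 lay above the library labelled heterozygous 2. Its estimate was 0.50 ± 0.21 (SE; edgeR adjusted p = 0.592). Mars1 shares 71 exonic bases (1.52% of its exons) with Ddit3, an ATF4 target on the opposite strand, and counting did not use strand.

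A second group of cytosolic genes had estimates near 0. These were Wars1 (tryptophan, 0.080), Kars1 (0.054), Qars1 (glutamine, 0.022), Farsa, the alpha subunit of the phenylalanine enzyme (-0.047), and Hars1 (histidine, -0.14), with SEs of 0.14 to 0.19 on the log2 scale. Kars1 (chr8:112720071-112737986) measured 270.4, 384, 257 and 343 CPM in knockout, 252, 427, 329 and 306 in heterozygous and 378, 293, 258 and 279.8 in wild-type embryos, and wild-type 1 lay above 3 of the 4 knockout embryos. Farsb (chr1:78394593-78465530) measured 152, 131, 108 and 159 CPM in knockout, 93.8, 174, 115 and 118 in heterozygous and 125, 101, 122 and 107 in wild-type embryos, with an estimate of 0.27 ± 0.19 (SE; edgeR adjusted p = 0.690). Rars1 (arginine) and Vars1 stood between, at 0.23 ± 0.16 and 0.44 ± 0.26 (SE).

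**Figure D2:**
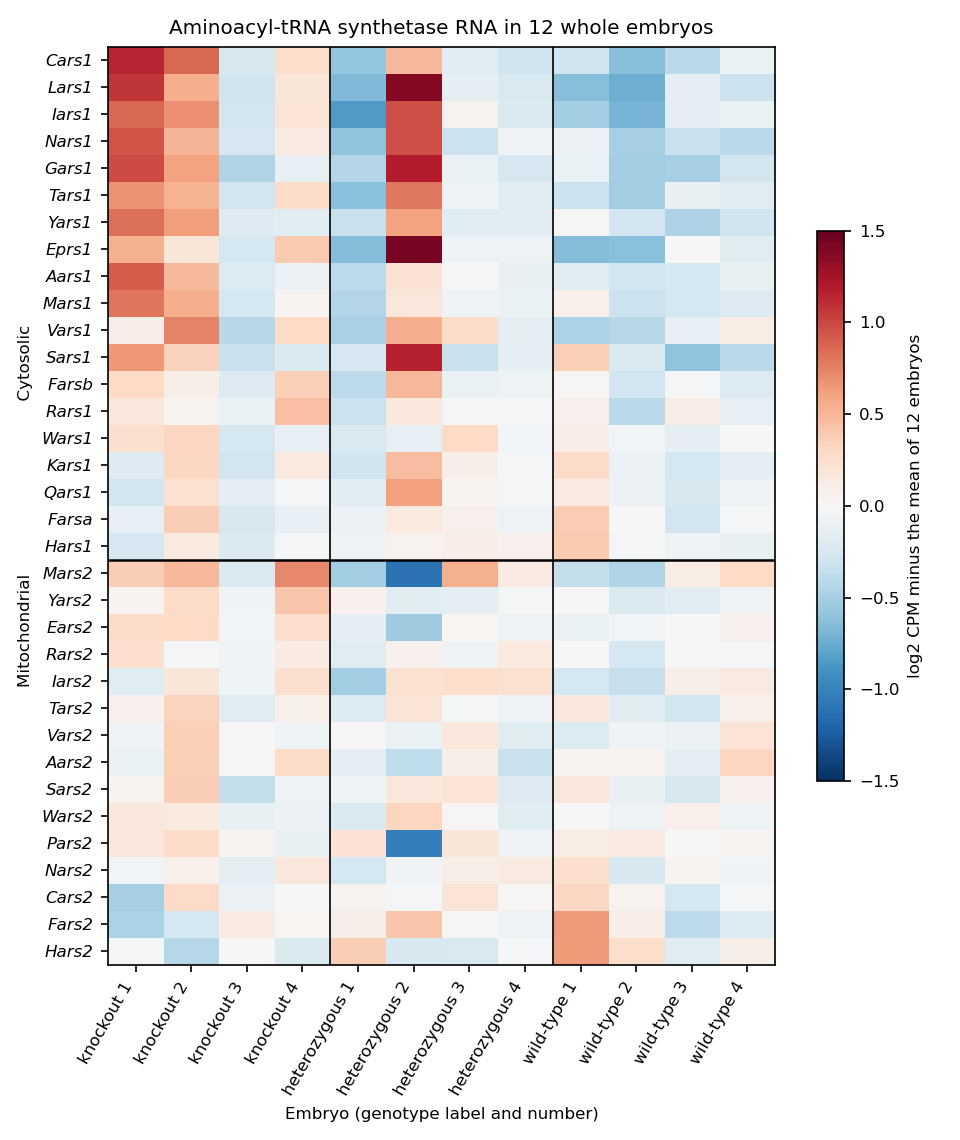
Log2 CPM of each member (rows, ordered by the knockout minus wild-type estimate within a compartment) in each of the 12 embryos (columns), minus that member's mean over the embryos. Red cells gather in knockout 1, knockout 2 and the library labelled heterozygous 2 in the upper, cytosolic block, where 9 of 19 members have exactly these 3 embryos as their highest, against 1 of 15 mitochondrial members.

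The same few embryos were high for many cytosolic members. In knockout 1, 14 of 19 cytosolic members were above every wild-type embryo, in knockout 2 15, in knockout 3 0 and in knockout 4 10. The heterozygous embryos gave 0, 16, 5 and 2 in order. Knockout 3 was below the 12-embryo mean for all 19 cytosolic members, as were heterozygous 1 and wild-type 2. Which members led differed between the high embryos. Eprs1, Lars1, Gars1, Sars1, Iars1, Tars1, Nars1, Kars1, Qars1 and Farsb were highest in the library labelled heterozygous 2, Cars1, Aars1, Mars1 and Yars1 in knockout 1, Vars1 and Wars1 in knockout 2, Rars1 in knockout 4, and Farsa and Hars1 in wild-type 1.

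Mitochondrial synthetases had smaller differences between genotypes. Their summed level was 422 ± 33.0 CPM in knockout, 403 ± 22.9 in heterozygous and 403 ± 28.3 in wild-type embryos (SD, n = 4), and the 12 embryos lay between 372 and 459 CPM. The sum over cytosolic members was 4366 ± 1070, 3988 ± 1562 and 3180 ± 252 CPM in the same order (SD, n = 4), between 2707 CPM in heterozygous 1 and 6261 CPM in the library labelled heterozygous 2. Hars2 had the smallest p of the mitochondrial members and was lower in knockout, with 31.3, 23.8, 32.0 and 27.5 CPM against 49.6, 38.2, 28.1 and 34.1 CPM in wild-type and 41.2, 27.1, 27.4 and 31.4 CPM in heterozygous embryos. The ranges overlapped, and its estimate of -0.39 ± 0.20 (SE) had edgeR adjusted p = 0.619. Hars2 and Hars1 are neighbours in opposite orientation on chromosome 18 and share 2 exonic bases.

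Yars2 (chr16:16120829-16127504), the mitochondrial tyrosine enzyme, measured 20.7, 24.5, 19.3 and 26.7 CPM in knockout, 20.9, 17.9, 18.3 and 19.8 in heterozygous and 20.2, 17.3, 18.1 and 19.4 in wild-type embryos, an estimate of 0.29 ± 0.14 (SE; edgeR adjusted p = 0.619). Knockout 1, 2 and 4 lay above the wild-type range. Ears2 (chr7:121633385-121666436), the glutamate enzyme, measured 28.3, 28.8, 22.8 and 27.8 CPM in knockout, 21.1, 16.2, 23.9 and 22.5 in heterozygous and 21.9, 22.8, 23.3 and 24.4 in wild-type embryos (0.22 ± 0.15, SE; edgeR adjusted p = 0.682). For Ears2 too, knockout 3 was the knockout embryo within the wild-type range. Mars2 (chr1:55276336-55279217), the methionine enzyme, had the largest mitochondrial estimate, 0.44 ± 0.33 (SE; edgeR adjusted p = 0.707), from 11.4, 12.4, 7.57 and 14.5 CPM in knockout, 6.15, 4.08, 12.8 and 9.64 in heterozygous and 6.88, 6.46, 9.54 and 10.9 in wild-type embryos. The library labelled heterozygous 2 was the lowest of the 12 for Mars2, as it was for Aars2, Ears2 and Pars2 (6.30 CPM, against 11.8 CPM or more elsewhere).

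Rars2 (chr4:34614941-34660167), the most abundant mitochondrial member per kilobase, measured 52.7, 43.6, 42.7 and 48.2 CPM in knockout, 38.9, 46.2, 42.5 and 48.9 in heterozygous and 44.1, 36.9, 44.5 and 43.4 in wild-type embryos. Aars2 (chr17:45817473-45831769), the alanine enzyme, measured 21.9, 29.9, 22.9 and 28.2 CPM, 21.1, 17.96, 24.8 and 18.5 CPM and 24.1, 24.1, 21.3 and 29.2 CPM in the same order. Nars2 (chr7:96600698-96725606), the least abundant per kilobase, measured 16.9, 18.4, 15.9 and 19.7 CPM, 14.5, 16.8, 18.5 and 19.2 CPM and 20.8, 14.8, 17.9 and 16.8 CPM. The genotypes overlapped for all 3, with estimates of 0.15 ± 0.13, 0.058 ± 0.17 and 0.013 ± 0.16 (SE). The other 8 mitochondrial members (Cars2, Fars2, Iars2, Pars2, Sars2, Tars2, Vars2 and Wars2) had estimates between -0.21 for Fars2 and 0.13 for Iars2.

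**Figure D3:**
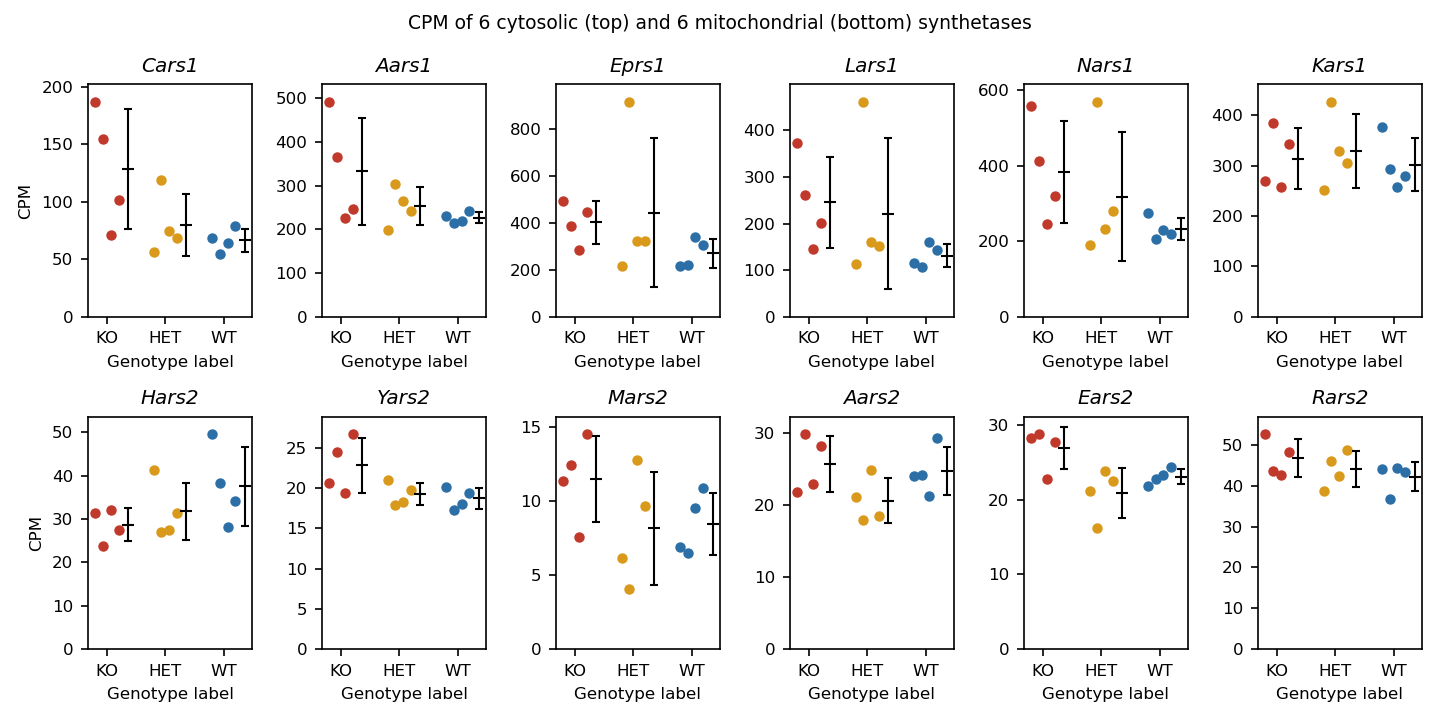
CPM in each embryo (points; knockout, heterozygous and wild-type in order of embryo number) with the mean and SD of 4 embryos beside them, for 6 cytosolic genes above and 6 mitochondrial genes below. In Cars1, Aars1, Lars1 and Nars1 knockout 1 and 2 stand above all wild-type embryos. In Eprs1, Lars1, Nars1 and Kars1 the library labelled heterozygous 2 is the highest of the 12.

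Summarised per embryo as the median over members of log2 CPM minus the 12-embryo mean, the cytosolic set stood at 0.65, 0.48, -0.26 and 0.14 in knockout 1 to 4, at -0.40, 0.54, -0.048 and -0.097 in heterozygous 1 to 4, and at 0.013, -0.32, -0.24 and -0.15 in wild-type 1 to 4. The mitochondrial set stood at 0.042, 0.29, -0.056 and 0.071 in knockout, -0.15, -0.051, 0.087 and -0.052 in heterozygous, and 0.042, -0.080, -0.093 and 0.059 in wild-type embryos. Knockout 1 and the library labelled heterozygous 2 were the embryos in which the sets differed most, by 0.61 and 0.59, and in knockout 2 the difference was 0.20. The mean of this difference was 0.17 ± 0.34 in knockout, 0.041 ± 0.38 in heterozygous and -0.16 ± 0.093 in wild-type embryos (SD, n = 4).

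Other targets of ATF4 had their highest levels in the same 3 embryos. For 38 tested ATF4 targets that are not synthetases, the median was 1.53, 0.85, -0.19 and 0.19 in knockout 1 to 4, 1.10 in the library labelled heterozygous 2, and from -0.57 to -0.35 among the remaining 7 embryos. Against wild-type, 36 of 38 had a higher estimate in knockout, 26 at an unadjusted p under 0.05 and 16 with no overlap between the groups, and the median was 1.28. Over all genes these shares were 51.3%, 4.25% and 1.60%. None passed the adjusted threshold of edgeR. The part of ATF4 in the synthetase values was not tested.

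**Figure D4:**
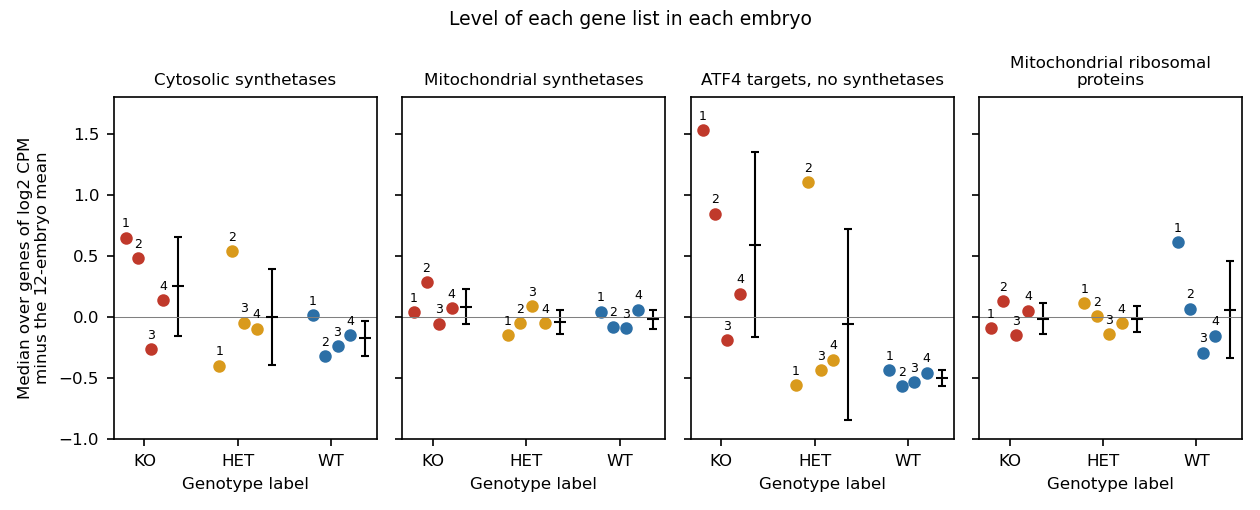
Median over genes of log2 CPM minus the 12-embryo mean, for 4 gene lists, in each embryo (numbered points) with the mean and SD of each genotype. Knockout 1, knockout 2 and the library labelled heterozygous 2 are highest in the cytosolic panel (0.65, 0.48 and 0.54) and in the panel of ATF4 targets (1.53, 0.85 and 1.10), while the mitochondrial synthetases stay between -0.15 and 0.29.

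Comparing enzymes for the same amino acid within an embryo sets aside a scale factor common to the whole library. Differences between embryos in stage or cell types can remain in these ratios. Of 16 cytosolic-mitochondrial pairs, 12 have the same name in both compartments, and Eprs1 was set against Ears2 and Pars2, and Farsa and Farsb against Fars2. All 16 had a higher mean log2 ratio in knockout than in wild-type embryos, with a median difference of 0.33. The pairs are not independent, since they share embryos and some share a gene. They also rest on the same values as the estimates above, so they are not a further result. Ratios of other gene pairs were not examined, so counts of pairs that were higher or did not overlap have no background share.

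The largest difference was that of the cysteine pair. The log2 ratio of Cars1 to Cars2 was 4.34, 3.28, 2.54 and 2.95 in knockout, 2.07, 3.22, 2.33 and 2.39 in heterozygous and 2.09, 2.002, 2.56 and 2.62 in wild-type embryos, a difference of 0.96 between knockout and wild-type means. Knockout 3 lay inside the wild-type range. For Nars1 and Nars2 the ratios were 5.04, 4.48, 3.94 and 4.02 in knockout and 3.72, 3.79, 3.67 and 3.71 in wild-type embryos, a difference of 0.65. For Iars1 and Iars2 they were 2.91, 2.38, 1.67 and 1.83 in knockout and 1.63, 1.52, 1.65 and 1.64 in wild-type embryos, a difference of 0.58. In the asparagine and isoleucine pairs the knockout and wild-type embryos did not overlap, and the wild-type SDs were 0.048 and 0.061. Heterozygous embryos measured 3.71, 5.08, 3.65 and 3.86 for the asparagine pair and 1.55, 2.61, 1.67 and 1.43 for the isoleucine pair. At the other end, the methionine pair differed by 0.017 and the tryptophan pair by 0.018, with ratios of 4.57, 4.18, 4.09 and 3.46 in knockout and 4.57, 4.26, 3.76 and 3.65 in wild-type embryos for Mars1 to Mars2. The ratio of Wars1 to Wars2 lay between 2.33 and 3.05 in all 12 embryos.

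**Figure D5:**
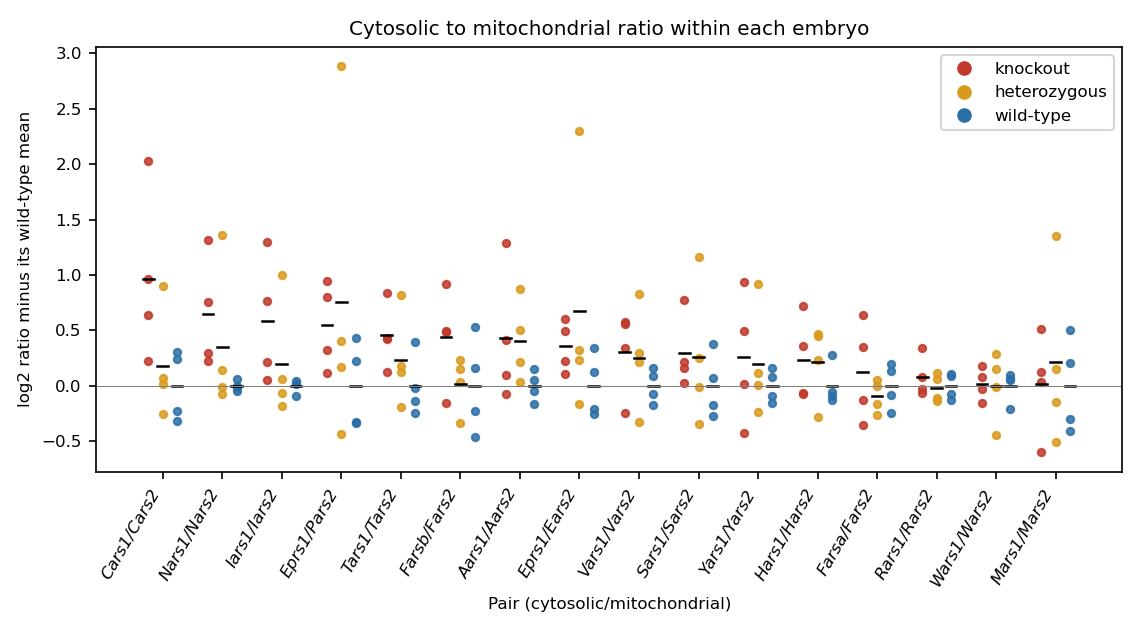
Log2 ratio of each cytosolic to its mitochondrial synthetase in each embryo, minus the pair's wild-type mean, with short bars for genotype means; pairs run from the largest to the smallest knockout minus wild-type difference. The knockout mean is above the wild-type mean in all 16 pairs, from 0.96 for Cars1/Cars2 to 0.017 for Mars1/Mars2, and 2 pairs (Nars1/Nars2 and Iars1/Iars2) have no overlap between knockout and wild-type embryos.

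Between knockout and heterozygous embryos, the median estimate was 0.14 for cytosolic members (13 of 19 higher) and 0.086 for mitochondrial members (10 of 15 higher), against -0.00055 for all genes, of which 49.9% were higher. By edgeR 0 members and 0% of all genes passed the adjusted threshold, as with DESeq2 and voom for the members. Cars1 (0.69 ± 0.29, SE; edgeR adjusted p = 0.648) and Ears2 (0.36 ± 0.15, SE; edgeR adjusted p = 0.645) were higher at an unadjusted p under 0.05, against 3.61% of all genes. DESeq2 gave the same counts of 1 cytosolic and 1 mitochondrial member, and voom gave 9 and 1, without a share of all genes for either tool. Next came Mars1 (0.43 ± 0.21) and Aars2 (0.32 ± 0.17) on the log2 scale. Knockout and heterozygous embryos overlapped for all 34 members, while 1.51% of all genes were higher and 1.93% lower with no overlap.

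That comparison turned on the library labelled heterozygous 2. Without it, the cytosolic median was 0.49, with 18 of 19 members higher, while the mitochondrial median was 0.061. In that fit 7 cytosolic members were higher at an unadjusted p under 0.05, without a share of all genes from the same fit. Without heterozygous 1, the lowest of that genotype, the cytosolic median was 0.020, and without knockout 1 it was 0.046. Without knockout 3 it was 0.33.

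Between heterozygous and wild-type embryos, 17 of 19 cytosolic members had a higher estimate, with a median of 0.26, and 9 of 15 mitochondrial members did, with a median of 0.013. All genes had a median of -0.0094, with 48.4% higher. By edgeR 0 members passed the adjusted threshold (0% of all genes) and 0 reached an unadjusted p under 0.05, against 0.732% of all genes higher and 0.274% lower. DESeq2 gave 0 at both levels as well, and voom gave 0 adjusted and 1 lower mitochondrial member unadjusted. The largest estimates were those of Lars1 (0.75 ± 0.40) and Eprs1 (0.72 ± 0.37), and the smallest p among mitochondrial members were those of Aars2 (-0.26 ± 0.17) and Hars2 (-0.24 ± 0.20; SE for all 4), each with edgeR adjusted p = 1. No member separated the groups, while 0.433% of all genes were higher and 0.443% lower with no overlap. Without the library labelled heterozygous 2, the cytosolic median was 0.015 and 12 of 19 members were higher. All 4 heterozygous embryos had Xist, an RNA of the inactive X chromosome, at a log2 CPM of 8.75 to 10.77. Knockout 1 was at 10.15 and wild-type 2 at 8.63, while the other 6 embryos lay between -1.95 and 3.24. With Xist as a covariate the cytosolic median was 0.15 for heterozygous against wild-type and 0.47 for knockout against wild-type, where 1 cytosolic member was left at an unadjusted p under 0.05. The 3 comparisons share their embryos and are not independent of each other.

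The estimates were also set beside the catalytic classes and the neighbours of the synthetases in translation. Eprs1 holds a class I and a class II enzyme and was left out of this split. The 9 other class I cytosolic members had a knockout minus wild-type median of 0.50 (9 of 9 higher) and the 9 class II members a median of 0.34 (7 of 9 higher). The scaffold genes of the multi-synthetase complex, Aimp1, Aimp2 and Eef1e1, had estimates of 0.091, -0.034 and 0.26. Of 16 accessories of tRNA charging and transport, 6 were higher, with a median of -0.047. Xpot, which exports tRNAs from the nucleus, is also on the list of ATF4 targets. It was the 1 accessory (6.25%) at an unadjusted p under 0.05, against 4.25% of all genes higher at that level. It measured 242.8, 220.3, 130.7 and 180.4 CPM in knockout 1 to 4, against 100.2, 110.9, 138.6 and 146.5 CPM in wild-type 1 to 4, a difference of 0.64 ± 0.19 (SE; edgeR adjusted p = 0.537).

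Other genes of translation lay closer to the median of all genes. Of 29 cytosolic translation factors, 21 were higher in knockout than in wild-type, with a median of 0.081. Eif2s2, the beta subunit of eIF2, was the 1 of them (3.45%) at an unadjusted p under 0.05. Over all genes, 4.25% were higher at that level. Eif2s2 measured 288.5 ± 88.0 CPM in knockout embryos, against 194.4 ± 29.6 CPM in wild-type ones (SD, n = 4). The difference was 0.57 ± 0.26 (SE), with edgeR adjusted p = 0.598. For 12 mitochondrial translation factors the median was -0.042 with 4 higher, and for 78 mitochondrial ribosomal proteins it was -0.11 with 19 higher. Neither list had a gene at an unadjusted p under 0.05, against 4.25% of all genes higher and 4.08% lower.

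Cytosolic members were then read by their promoter letters. The 5 with a response element match had a median knockout minus wild-type estimate of 0.62 (0.56 for Aars1 to 0.77 for Iars1; 4 at an unadjusted p under 0.05), and the 7 with a window and no match had a median of 0.27 (-0.047 for Farsa to 0.58 for Eprs1; 1 at that level, Mars1). Over all genes, 4.25% were higher at an unadjusted p under 0.05. In the per-embryo summary the 5 summed to 1366 ± 479 CPM in knockout, 1130 ± 480 CPM in heterozygous and 869 ± 73.7 CPM in wild-type embryos (SD, n = 4). The 7 without a match summed to 1560 ± 257, 1598 ± 646 and 1286 ± 128 CPM in the same order (SD, n = 4). Cars1, with the largest estimate, and Lars1 and Nars1 have no window in the table and stand in neither group, so the split covers 12 of 19 cytosolic members.

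The estimates moved with the stage index. With that index as a covariate, the knockout minus wild-type median was 0.11 for cytosolic members (11 of 19 higher, 0 at an unadjusted p under 0.05) and -0.044 for mitochondrial members (6 of 15 higher). For knockout against heterozygous the cytosolic median was -0.17 with 5 of 19 higher. With the covariate Cars1 was at 0.59 (0.95 without it), Yars1 at 0.49, Aars1 at 0.48 and Mars1 at 0.38, while Eprs1 was at -0.082, Rars1 at -0.073, Farsb at -0.063 and Vars1 at -0.060. Knockout 4 had the lowest index of the 12 embryos and a cytosolic median of 0.14, below knockout 1 and 2. The part of developmental stage in the genotype difference was not tested, and the index rests on gene expression alone, including that of neuronal markers.

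The first number in each embryo's title gave a further grouping, whose meaning is not stated in the labels. Knockout 1 and the library labelled heterozygous 2 both carried the number 14, which no wild-type embryo had. Knockout 4 was the single embryo with 15, and heterozygous 3 the single embryo with 4.1b. Within number 4 (knockout 2 against wild-type 3 and 4) the cytosolic median was 0.67 and the mitochondrial 0.27. Within number 18 (knockout 3 against wild-type 1 and 2) they were -0.054 and -0.072. For heterozygous against wild-type the cytosolic medians were 0.068 within number 4 (heterozygous 4 alone) and -0.20 within number 18 (heterozygous 1 alone). With the title number as a block in the fit of all 12 embryos, the cytosolic median was 0.26 for knockout against wild-type (15 of 19 higher, 4 at an unadjusted p under 0.05) and -0.0027 for heterozygous against wild-type (9 of 19 higher). No share of all genes from that fit is given. In comparisons with wild-type, genotype and title number cannot be told apart for the embryos numbered 14, 15 and 4.1b.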

How the data were processed

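RNA-seq libraries of 12 whole embryos were analysed, each embryo as a separate sample of its labelled genotype. Total RNA went into TruSeq Stranded mRNA libraries with ERCC spike-ins, per the labels' protocols. The deposited table holds estimated counts per gene, which the authors made with featureCounts 2.0.6, per the file headers. Reads that map to several places or overlap several genes were split into fractions, mates were counted singly and strand was not used, per the same headers. The annotation was RefSeq on GRCm39, and DRAGEN and Subread are named in the submitters' processing notes. The table has 0 spike-in features.

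Counts were rounded to whole numbers, filtered with filterByExpr and scaled by TMM. All 12 embryos entered 1 fit of edgeR 4.0.16 (quasi-likelihood, robust; R 4.3.3), with Benjamini-Hochberg adjustment over 20771 genes and a threshold of 0.05. CPM values use TMM-scaled totals, and log2 CPM a prior count of 2. DESeq2 1.42.0, limma voom 3.58.1, other scalings and filters, covariates and the leaving out of embryos were alternatives. The fit was tested on simulated data. Single members were also tested by exact two-sided permutation over embryos. Tables and figures used Python 3.11.15 and matplotlib 3.10.9.

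Members and gene lists were chosen with earlier results of these data known. Values for every embryo were given, in each compartment, for the 5 members with the smallest p in knockout against wild-type, the 2 with the smallest p in each other comparison, and the 2 most and 1 least abundant per kilobase. Further values, such as those of Iars1, were added after they were seen. In each gene list the 3 genes with the smallest p and the most abundant could be named, and pairs were described for the 3 largest and 2 smallest differences. Nothing says that litters or preparation days were recorded, so p-values measure the spread between these embryos. A few items are not reported here.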

Additional observations from a re-analysis of the deposited data

Results flagged for a closer look

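For each member and genotype, and for the other values reported per embryo, 114 groups of 4 embryos were examined for 1 value far from the rest of its group (by the size of its gap to the next value relative to the range of the group). Chance gives about 1 such group in 20, and 9 were found. The library labelled heterozygous 2 was far above the other heterozygous embryos for 5 cytosolic synthetases. Eprs1 measured 914.5 CPM there (next 321.7, lowest 216.1). Lars1 measured 461.7 CPM (next 160.9, lowest 112.4). Sars1 measured 447.7 CPM (next 184.1, lowest 160.6). Gars1 measured 499.6 CPM (next 206.6, lowest 163.3). Yars1 measured 210.1 CPM (next 123.5, lowest 110.0). The other 4 were spread over the genotypes. Hars1 in wild-type 1 was high at 160.9 CPM (next 120.8, lowest 113.7). Ears2 in knockout 3 was low at 22.84 CPM (next 27.8). Iars2 in heterozygous 1 was low at 48.79 CPM (next 81.93), and Rars2 in wild-type 2 was low at 36.89 CPM (next 43.36).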

How the results depend on the processing

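Across the 24 alternatives that gave adjusted p-values for the members, 0 of the 34 members passed the adjusted threshold in any comparison. The number of all genes passing depended on the tool: with DESeq2 it was 114 for knockout against wild-type, 75 for knockout against heterozygous and 4 for heterozygous against wild-type, where edgeR gave 0. For knockout against wild-type it was 2 with the title number as a block, 13 with the stage index and 1 without knockout 1 and heterozygous 2 together. Leaving out 1 embryo at a time gave 0 to 1 gene in that comparison and 0 to 1 for knockout against heterozygous.

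For knockout against wild-type, the stage index gave a cytosolic median of 0.11 with 11 members higher and 6 mitochondrial members higher. Within title number 18 the medians were -0.054 (cytosolic) and -0.072 (mitochondrial), and within number 4 the mitochondrial median was 0.27. With 1 embryo left out, the cytosolic median lay between 0.32 and 0.67, and 7 (without knockout 2) to 14 (without wild-type 1) mitochondrial members were higher. For knockout against heterozygous, the medians within number 4 (knockout 2 against heterozygous 4) were 0.56 and 0.33. In that comparison 5 cytosolic members were higher with the stage index. For heterozygous against wild-type, the medians within number 18 (heterozygous 1 alone) were -0.20 and -0.12, and 9 cytosolic members were higher with the block. The mitochondrial median was 0.13 with Xist, and 5 mitochondrial members were higher with library totals alone, or 5 to 9 with 1 embryo left out. The causes of these shifts were not tested. The labels give no replicate numbers, so the title number was the 1 block tried. Mfsd12 passed the adjusted threshold in DESeq2 (1.18e-05) and not in edgeR. The other 350 values that answer a comparison kept within their spread or 1.5 times their count. The shallowest member value rests on 193 reads.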
